A study of Mus musculus with 5 samples.

Results

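The suprabasal epidermis of the embryonic mouse limb was represented by 191 cells of 2 single-cell RNA-seq libraries, 72 from forelimb and 119 from hindlimb, out of 49801 limb cells and 69434 cells in all 5 libraries that passed the filters. A limb cell was taken as suprabasal when it held at least 1 unique molecular identifier (UMI, 1 captured transcript) of 2 or more of the epithelial genes Cdh1, Perp and Dsp and of 2 or more of Krt1, Krt10, Krtdap and Sbsn. Cells with 100 to 9000 detected genes and at most 10% mitochondrial UMIs were considered. The comparison group was 121 limb basal cells (64 forelimb, 57 hindlimb), which held 4 or more of Krt5, Krt14, Trp63, Cdh1, Perp and Dsp and at most 1 of Krt1, Krt10, Krtdap and Sbsn. These 10 genes chose the cells, so their levels are description and none of them was tested between the layers. Krt5, Krt14 and Trp63 took no part in choosing the suprabasal cells.

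The epidermis is a layered epithelium. Keratinocytes divide in the basal layer, on the basement membrane, and as they leave it they replace the keratins Krt5 and Krt14 with Krt1 and Krt10, strengthen their desmosomes and later build a cornified envelope and a lipid barrier. In the embryo a flat outer sheet, the periderm, covers these layers until the barrier forms. Krtdap and Sbsn encode small secreted proteins of differentiating keratinocytes, and Cdh1, Perp and Dsp encode adhesion proteins of epithelial cells.

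The limbs were dissected from 6 male embryos at embryonic day 15, with no treatment or transgene given. The labels name the strain as C57BL/6N and the methods of the study name C57BL/6J. There was 1 forelimb and 1 hindlimb library, so neither limb had a replicate, and how the embryos were divided between the libraries was not given in the sources used here. For comparison, 379 penis cells chosen by the same genes (128, 147 and 104 in 3 libraries) and 261 penis basal cells came from males of the same strain at postnatal day 6, with the prepuce removed before dissociation. Tissue, age and preparation cannot be told apart in any comparison of limb with penis, and p-values measure the spread between libraries. In the test of the limb layers, that spread was estimated over the penis libraries as well.

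The 5 libraries held 70554067 to 162335993 UMIs. The suprabasal cells held a median of 5992 UMIs in forelimb and 5617 in hindlimb, close to the 5804.5 and 6442 of the limb basal cells and below the 14125 to 16380 of the penis cells. Summed, they gave 783714 and 960186 UMIs, against 471577 and 427738 in limb basal cells, so counting error is smaller in the suprabasal sums. The forelimb and hindlimb libraries shared 203 barcodes, and none of those was a suprabasal cell in both.

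Suprabasal cells were a small share of each limb library: 0.278% of forelimb cells (95% exact binomial interval 0.218 to 0.350) and 0.497% of hindlimb cells (0.412 to 0.595). In penis the share was 1.82% to 2.07%. Every penis library was above both limb libraries, with p = 0.1 by the two-sided exact permutation test over libraries, the smallest p it can give, and 0.12 after adjustment over 6 such tests. Among cells of both layers at full depth, suprabasal cells made up 52.9% in forelimb, 67.6% in hindlimb and 58.1% to 60.1% in penis (exact permutation p = 0.8). The rules count detected genes, and the penis cells were deeper. With UMIs thinned to an equal depth before the rules, 29 forelimb and 50 hindlimb cells were suprabasal, against 32 and 29 basal. In penis 28, 38 and 32 cells were suprabasal, against 80, 99 and 80 basal. At that depth the suprabasal share of both layers was lower in every penis library than in either limb library, and this was not tested. The binomial intervals cover counting error only, and the tissues were dissociated whole, so a share also depends on how many other cells were released. With the limb limits, 272, 308 and 211 penis cells were suprabasal by the rule and 132, 168 and 132 were basal. The shares and their tests were not repeated with those limits.

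The members differed in how many of the 4 suprabasal genes they held. In forelimb, 23 cells held 2 of the 4 suprabasal genes, 19 held 3 and 30 held 4. In hindlimb these numbers were 28, 28 and 63. Just outside the rule stood 35 forelimb and 33 hindlimb epithelial cells with 1 of the 4 genes. Ly6d, which encodes a surface protein of differentiating keratinocytes and took no part in the rule, stood at 44.3 CPM (counts per 1000000 UMIs of the summed cells) in forelimb and 25.1 in hindlimb in the cells with 1 gene. It stood at 122 and 114 CPM in cells with 2 genes, 337 and 541 with 3, and 2567 and 2097 with 4. Krt15, a keratin of basal cells, was at 3829 and 4511 CPM just outside, 7684 and 6316 just inside with 2 genes, and 698 and 1090 with 4. The genes of the rule themselves stood at 966 and 2134 CPM for Krt1, 1161 and 2532 for Krt10, 1104 and 2909 for Krtdap and 1044 and 1265 for Sbsn over all members, against at most 95.4 CPM in limb basal cells. Cells with 2 of the genes thus held more Ly6d than cells outside the rule and far less than cells with 4. They were of more than one kind: 13 of the 23 forelimb and 12 of the 28 hindlimb cells held neither Krt1 nor Krt10, and these cells, described below, held 1795 of 1885 and 1179 of 1389 of the Krt15 UMIs. In the other 10 and 16 cells Krt15 stood at 1027 and 1687 CPM, below the cells outside the rule, and Ly6d at 68.5 and 80.3 CPM from 6 and 10 UMIs.

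UMIs of the suprabasal genes were also found outside the epidermis. In limb mesenchyme cells Krt1 was found in 1.44% of forelimb and 2.28% of hindlimb cells, Krtdap in 3.00% and 3.57%, Sbsn in 6.97% and 7.77%, and Krt10 in 15.9% and 17.7%. The proportions were not those of the members. Mesenchyme cells held 2593 UMIs of Krt10 and 240 of Krt1 in forelimb, and 2855 and 351 in hindlimb. Suprabasal cells held 910 and 757 in forelimb, and 2431 and 2049 in hindlimb. The 14023 forelimb and 13570 hindlimb mesenchyme cells had medians of 5725 and 6297.5 UMIs, a depth like that of the suprabasal cells. Among suprabasal cells the shares were 69.4% and 78.2% for Krt1, 93.1% and 92.4% for Krtdap, 75.0% and 73.1% for Sbsn and 72.2% and 85.7% for Krt10. Of the mesenchyme cells, 2.58% and 3.43% held 2 or more of the 4 genes. Whether these UMIs were free RNA or RNA of the mesenchyme cells was not tested, nor was the part of free RNA in the choice of the members.

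The label was checked against markers that the rule did not use. Ly6d was found in 55.6% of forelimb and 68.9% of hindlimb suprabasal cells against 4.69% and 7.02% of basal cells. Dsg1a, a desmosomal cadherin of the upper layers, was found in 29.2% and 30.3% against 1.56% and 1.75%. Krt77, a keratin of suprabasal skin, was found in 13.9% and 22.7%, and in no limb basal cell. Late markers were uneven. Flg, the filaggrin gene of the granular layer, had no UMI in either library, which allows a UMI in up to 4.17% of the 72 forelimb and 2.52% of the 119 hindlimb cells and sets no limit on cells that express it. Ivl, the involucrin gene, had 4 and 34 UMIs, and Krt2 had 0 and 1, whereas Lor, the gene of the envelope protein loricrin, stood at 259 and 3716 CPM. Basal keratins were still present: 43.1% of forelimb and 32.8% of hindlimb cells held Krt14, and 61.1% and 52.1% held Krt5.

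RNA of other cell types was present in both layers. By the marker lists used here, 27 of 72 forelimb and 43 of 119 hindlimb suprabasal cells held marker combinations of another type, most often mesenchyme (21 and 32 cells with 3 or more of its 6 markers). The 6 mesenchyme markers together stood at 1245 and 1702 CPM in suprabasal cells and 1540 and 863 CPM in basal cells, against 8498 and 8173 CPM in mesenchyme cells. Red blood cell genes stood at 4189 and 4355 CPM in suprabasal cells and at 4735 and 418 CPM in basal cells, the hindlimb basal sum standing apart. The counts below are given again without such cells, and the part of this RNA in each single gene was not tested.

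The promoters of Sbsn and Krtdap, of their neighbour Dmkn and of Lor are shown as examples. The first 2 are among the genes that chose the cells, the third lies between them and the fourth is among the genes with the widest gap between the layers. Krt1 and Krt10 also chose the cells, and their promoters are not shown. The sequences are those of RefSeq, 250 bases before to 50 after the annotated start, on build GRCm38.p6: Sbsn at chr7:30751221-30751520 (+), Dmkn at chr7:30763506-30763805 (+, the first of 3 windows), Krtdap at chr7:30787655-30787954 (+) and Lor at chr3:92083093-92083392 (-). Capitals mark matches to TGANTCA, the letters bound by AP-1 factors, on either strand.
Sbsn: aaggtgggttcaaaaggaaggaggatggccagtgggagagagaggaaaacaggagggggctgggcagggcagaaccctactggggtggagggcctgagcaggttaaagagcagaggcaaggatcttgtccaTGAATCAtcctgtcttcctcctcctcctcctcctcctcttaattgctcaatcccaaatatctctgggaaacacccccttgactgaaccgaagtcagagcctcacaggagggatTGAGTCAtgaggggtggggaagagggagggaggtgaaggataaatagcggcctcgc
Dmkn: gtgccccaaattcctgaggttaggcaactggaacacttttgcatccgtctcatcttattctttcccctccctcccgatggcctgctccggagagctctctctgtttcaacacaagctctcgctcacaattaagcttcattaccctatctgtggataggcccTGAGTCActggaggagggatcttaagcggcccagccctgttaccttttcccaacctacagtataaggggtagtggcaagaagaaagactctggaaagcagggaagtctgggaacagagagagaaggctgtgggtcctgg
Krtdap: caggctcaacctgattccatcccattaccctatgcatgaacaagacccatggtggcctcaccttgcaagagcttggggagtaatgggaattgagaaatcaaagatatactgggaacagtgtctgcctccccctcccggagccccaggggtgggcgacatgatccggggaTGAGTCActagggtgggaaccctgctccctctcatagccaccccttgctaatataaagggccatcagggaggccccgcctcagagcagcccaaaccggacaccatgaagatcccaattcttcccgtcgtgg
Lor: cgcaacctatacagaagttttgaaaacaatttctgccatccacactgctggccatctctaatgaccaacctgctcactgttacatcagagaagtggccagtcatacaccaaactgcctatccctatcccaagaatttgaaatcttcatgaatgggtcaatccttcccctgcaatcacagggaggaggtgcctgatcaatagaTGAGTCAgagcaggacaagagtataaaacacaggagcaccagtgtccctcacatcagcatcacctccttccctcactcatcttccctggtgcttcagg
The first base of the match nearest the start lay 6 bases before it in Sbsn, where the match reached the start itself, 89 in Dmkn, 81 in Krtdap and 48 in Lor. Sbsn had another match whose first base lay 119 bases before its start.

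TGANTCA was present in the promoters of 20 of the 109 genes higher in suprabasal cells that matched a RefSeq promoter (18.3%), of 150 such genes described below. It was present for 5.89% of the 8425 tested genes that matched and in 7.81% of all 32851 promoters of this length. Genes with it included Dmkn, Lor, Sprr1a, Sprr1b, Krt13, Prr9, Scel, S100a16 and Stfa3. Of 8 other motifs searched on both strands, some of which can share bases with one another, TATAAA was present for 16.5% of the higher genes and 8.76% of the tested genes, and CCNCACCC for 34.9% and 23.2%. CCGGAA was present for 11.01% and 32.6%, CCAAT for 39.4% and 42.8%, GCCNNNGGC for 22.9% and 29.4% and TTGCNNAA for 11.9% and 9.55%. The p53 family motif was present for 0.917% and 2.50%, and AACCGGTT for 0% and 0.332%. These shares are descriptions with no test, and a match is not a measured site.

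Which genes accompany the suprabasal keratins was asked by comparing suprabasal with basal cells of the same limb library. Of 10669 genes tested, 150 (1.41%) were higher in limb suprabasal cells and 18 (0.169%) were lower, at an adjusted p under 0.01 and a fold past 2 (edgeR quasi-likelihood test on summed UMIs). Because cells were chosen by genes of the same libraries, the test describes what goes with those genes and is not an independent sign of a layer. In these sums, more RNA per cell and more cells with the RNA cannot be told apart. Genes with few basal UMIs could pass the filter on low counts through the suprabasal sums. The counts and medians of the gene lists below are thus partly set by that filter and are description only. Without cells holding RNA of other types, 77 genes were higher and 31 lower. Without the forelimb library 73 and 33 were called, and these held 59 of the 150 higher and 7 of the 18 lower genes. Without the hindlimb library 99 and 13 were called, with 74 of the 150 and 1 of the 18 among them. The penis libraries add to the estimate of spread and also to the filter on low counts, the TMM factors and so the adjustment. Without penis library 1, 89 and 6 were called, with 88 and 6 of the same genes. With the limb sums alone, 8167 genes were tested and 223 and 23 were called. 10 genes were picked out after their values were seen, because they were called as higher in every setting in which they were tested: Ly6d, Dsg1a, Fabp5, Lgals7, Them5, Calm4, S100a14, S100a16, Klk10 and Rab25.

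Of 17 genes of spinous differentiation tested, 12 were higher and none lower, with a median log2 fold change of 2.99 against 0.00 for all genes. Ly6d was at 1032 CPM in forelimb and 1376 in hindlimb suprabasal cells and at 23.3 and 14.03 in basal cells, a log2 fold change of 6.05 ± 0.43 (SE, adjusted p = 1.43e-05). Krt77 was at 42.1 and 315 CPM and had no UMI in basal cells, at least 57.6-fold higher. Both limbs showed each of these differences, although 160 of the 302 hindlimb UMIs of Krt77 were in 1 cell and the call was lost without the hindlimb library (adjusted p = 0.0787). Calml3, a calmodulin-like protein of keratinocytes, was at 38.3 and 72.9 CPM against 0 and 2.34, a ratio of 51.6 (counting interval 9.05 to 2057, 1 basal UMI). Krt80 was at 112 and 52.1 CPM against 2.12 and 2.34, a ratio of 35.6 (9.67 to 297, 2 basal UMIs). Of the 12 calls, 8 were made without cells holding other types' RNA.

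Fabp5 and Lgals7 were abundant in both layers and differed by smaller steps. Fabp5, a fatty acid carrier, was at 4498 and 6558 CPM in suprabasal and 1423 and 2006 in basal cells, a log2 fold change of 1.77 ± 0.12 (adjusted p = 8.39e-06). Lgals7, the gene of galectin-7, was at 2019 and 2845 CPM against 833 and 680, a log2 fold change of 1.75 ± 0.16 (adjusted p = 7.81e-05). For both genes, each suprabasal sum lay above both basal sums.

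**Figure D1:**
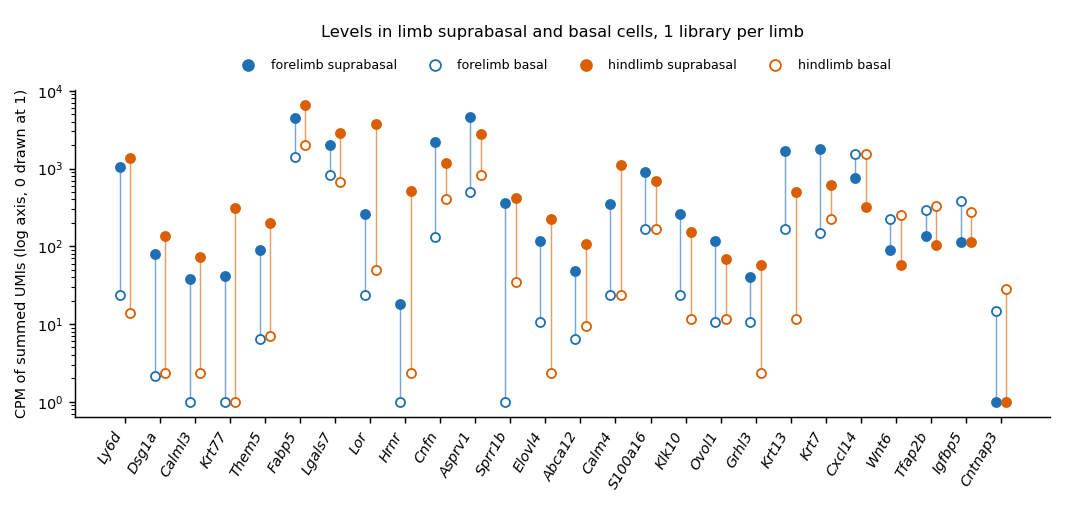
CPM of summed UMIs (log axis, 0 drawn at 1) for named genes in limb suprabasal cells (filled) and basal cells (open), forelimb in blue and hindlimb in orange, 1 library per limb. Lines join the 2 layers of a library; Ly6d reached 1032 and 1376 CPM in suprabasal cells, while Cxcl14, Wnt6, Tfap2b, Igfbp5 and Cntnap3 were lower there.

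Of 15 genes of the cornified envelope and granular layer tested, 11 rose and none fell, with a median log2 fold change of 3.13. Lor was at 259 CPM in forelimb and 3716 in hindlimb suprabasal cells against 23.3 and 49.1 in basal cells, a log2 fold change of 5.52 ± 0.42 (adjusted p = 1.87e-05). In hindlimb, 1703 of its 3568 UMIs were in 1 cell, and 1987 CPM remained without that cell. Hrnr, the gene of the envelope protein hornerin, was at 17.9 and 512 CPM and had 1 basal UMI, with 369 of 492 hindlimb UMIs in 1 cell. Sprr1b and Sprr3 encode small proline-rich proteins that are cross-linked into the envelope. Sprr1b was at 365 and 417 CPM against 0 and 35.1 (log2 fold change 4.64 ± 0.48, adjusted p = 0.000532), and Sprr3 at 152 and 85.4 against 6.36 and 18.7 (3.31 ± 0.46, adjusted p = 0.00337). Without the forelimb library the adjusted p of Sprr3 was 0.0848, and 6 genes of the list passed. Only 2 of the 11 calls were made when cells with RNA of other types were left out. Tgm1, the transglutaminase that cross-links the envelope, was at 39.6 and 68.7 CPM against 10.6 and 16.4 and missed the limit (adjusted p = 0.0101).

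Of 19 genes of the lipid barrier tested, 3 rose and the fitted difference was positive for the whole list, with a median log2 fold change of 2.47 (2.37 with genes at 0 set to their bound). Elovl4, which elongates very long fatty acids, was at 116 and 226 CPM against 10.6 and 2.34 (4.69 ± 0.57, adjusted p = 0.000639). Abca12, the lipid transporter of the granular layer, was at 48.5 and 106 CPM against 6.36 and 9.35 (3.34 ± 0.45, adjusted p = 0.00285). Dgat2, an enzyme of triglyceride synthesis, was at 47.2 and 88.5 CPM against 10.6 and 9.35 (2.79 ± 0.46, adjusted p = 0.00478). Both limbs moved the same way for these genes, but without the hindlimb library the adjusted p was 0.0361 for Elovl4, 0.235 for Abca12 and 0.178 for Dgat2. Without the forelimb library it was 0.0168 for Abca12 and 0.0149 for Dgat2, and without penis library 1 it was 0.0169 for Dgat2. Abca12 was also not called without cells holding RNA of other types, and none of the 3 was called by DESeq2.

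Adhesion genes were followed in 2 lists, and no difference between the lists was tested. Of 10 desmosome genes outside the rule, 4 rose (median log2 fold change 1.68). Dsg1a was at 79.1 and 134 CPM in suprabasal cells against 2.12 and 2.34 in basal cells, a ratio of 49.2 (counting interval 13.4 to 410, 2 basal UMIs). Dsc3, a desmocollin, was at 125 and 195 CPM against 38.2 and 35.1 (2.18 ± 0.25, adjusted p = 0.000465), although without the hindlimb library the adjusted p was 0.0119. Jup, the gene of plakoglobin, was at 286 and 278 against 93.3 and 81.8 (1.77 ± 0.17, adjusted p = 0.000107). Pkp1, a plakophilin, was at 198 and 197 CPM against 72.1 and 65.5 (1.60 ± 0.19, adjusted p = 0.000532). Of 13 tight junction genes, 2 rose, Cldn1 and Tjp1. Cldn1 was at 142 and 82.3 CPM against 27.6 and 30.4 (2.01 ± 0.32, adjusted p = 0.00382), and Tjp1 at 193 and 151 against 70.0 and 74.8 (1.32 ± 0.20, adjusted p = 0.00246). Without the forelimb library neither passed (adjusted p = 0.137 for Cldn1 and 0.0499 for Tjp1), and neither did without cells holding RNA of other types. Cldn1 also missed the limit without the hindlimb library (0.0112) and by DESeq2.

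Calcium-binding proteins and proteases of the upper layers rose in part. Of 15 genes of calcium handling and the S100 family, 6 rose. Calm4 was at 353 and 1125 CPM against 23.3 and 23.4 (4.95 ± 0.32, adjusted p = 6.21e-06), and S100a16 at 901 and 685 against 165 and 168 (2.32 ± 0.17, adjusted p = 1.61e-05). Of 19 proteases and protease inhibitors, 6 rose, among them Klk10, a kallikrein-related peptidase, at 258 and 152 CPM against 23.3 and 11.7 (3.62 ± 0.28, adjusted p = 1.87e-05). Rab25, an epithelial trafficking protein, was the member called of 14 splicing and polarity genes, at 369 and 403 CPM against 53.01 and 101 (2.44 ± 0.22, adjusted p = 6.63e-05). Without the hindlimb library 1 of the protease list passed.

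Among 31 transcription factors known from stratification, 6 rose and 2 fell. Ovol1, a repressor active as cells leave the basal layer, was at 119 and 67.7 CPM against 10.6 and 11.7 (3.13 ± 0.45, adjusted p = 0.00219). Grhl3, a grainyhead factor of barrier formation, was at 40.8 and 58.3 CPM against 10.6 and 2.34 (2.95 ± 0.53, adjusted p = 0.00809). Zfp750, Grhl1 and Klf5 also rose, by log2 fold changes of 2.33, 1.67 and 1.32. Tfap2b fell by 1.32 ± 0.22 on the log2 scale, from 297 and 327 CPM in basal to 134 and 104 in suprabasal cells (adjusted p = 0.00486), and Satb1 fell by 1.31 ± 0.23, from 155 and 161 to 61.2 and 59.4 (adjusted p = 0.00650). These calls stood close to the limit: 1 of the 6 rises passed without the forelimb library, 3 without the hindlimb library and 3 without penis library 1. Ovol1 missed the limit without forelimb (0.0584), Klf5 without forelimb (0.0547) or penis library 1 (0.0213), and Zfp750 without forelimb (0.0294) or hindlimb (0.0612). Grhl3 missed it without hindlimb (0.173) or penis library 1 (0.0267) or 2 (0.0112), and Grhl1 without any one of the 5 libraries (0.0103 to 0.188). Both falls missed the limit without either limb library (adjusted p = 0.0121 and 0.0884 for Tfap2b, 0.0499 and 0.0896 for Satb1 without forelimb and hindlimb), and that of Satb1 also without penis library 1 or 3 (0.0129 and 0.0119). Klf4, a factor of barrier formation, was at 398 and 305 CPM against 206 and 201 (0.86 ± 0.17, adjusted p = 0.0158).

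Notch signalling promotes the move out of the basal layer. Of 12 genes of the pathway tested, 1 rose: Nrarp, a target that feeds back on Notch, at 63.8 and 61.4 CPM against 23.3 and 11.7 (1.91 ± 0.34, adjusted p = 0.00801). It missed the limit when any one of the 5 libraries was left out (adjusted p = 0.0105 to 0.145). The receptors were not called: Notch3 was at 56.1 and 96.9 CPM against 27.6 and 21.0 (1.70 ± 0.35, adjusted p = 0.0180) and Notch1 at 143 and 131 against 91.2 and 49.1 (1.06 ± 0.27, adjusted p = 0.0495). The target Hes1 was at 147 and 124 CPM against 146 and 143 (-0.02 ± 0.17).

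Genes of the cell cycle and of the basement membrane did not pass the test in either direction. All 22 genes of the G2 and M phases had negative estimates with a median log2 fold change of -0.56, and 20 S phase genes had a median of -0.18. At an unadjusted p under 0.05, where 7.41% of all genes tested were lower and 10.7% higher, 4 of the 22 and 1 of the 20 were lower and none was higher by edgeR. Mki67, a gene of dividing cells, was at 149 and 136 CPM in suprabasal and 144 and 220 in basal cells (-0.25 ± 0.25, adjusted p = 0.643). The 20 genes of the basement membrane and its integrins had a median of -0.58, with 17 of 20 negative, and at an unadjusted p under 0.05 there were 9 lower and 1 higher. Col17a1, a collagen of the hemidesmosome, was at 165 and 62.5 CPM against 297 and 206 (-1.15 ± 0.22) and missed the limit (adjusted p = 0.0104). Cdkn1a, a cell cycle inhibitor, was at 195 and 158 CPM against 50.9 and 56.1 (1.80 ± 0.34, adjusted p = 0.0113).

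The genes that fell most were Cntnap3, Ifitm1, Hmcn1, Wnt6, Astn2, Cxcl14, Fjx1, Samd5, Igfbp5 and Tfap2b. Cntnap3 had no UMI in suprabasal cells and 7 and 12 in basal cells, at least 12.3-fold lower, and its call was lost without any one of the 5 libraries (adjusted p = 0.0150 to 0.142), as was that of Fjx1 (0.0166 to 0.171). That of Samd5 was lost without the hindlimb library or any one penis library (0.0128 to 0.200), that of Ifitm1 without penis library 1, forelimb or hindlimb (0.0152 to 0.179) and that of Hmcn1 without forelimb (0.0442) or hindlimb (0.0135). That of Astn2 was lost without hindlimb (0.0458). Cxcl14, a chemokine of the skin, was at 746 and 325 CPM against 1546 and 1545 and fell by 1.56 ± 0.23 (adjusted p = 0.00230), and by 0.99 without the hindlimb library. Without penis library 1 its adjusted p was 0.0140. Wnt6, a ligand of the ectoderm, was at 90.6 and 57.3 against 223 and 255 and fell by 1.63 ± 0.21 (adjusted p = 0.000909). It was the 1 called gene of 27 of Wnt, Bmp and Fgf signalling, and its adjusted p was 0.0157 without the hindlimb library. Igfbp5, which binds insulin-like growth factors, was at 115 and 112 CPM against 384 and 276 and fell by 1.44 ± 0.19 (adjusted p = 0.00116, and 0.0196 without the forelimb library).

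**Figure D2:**
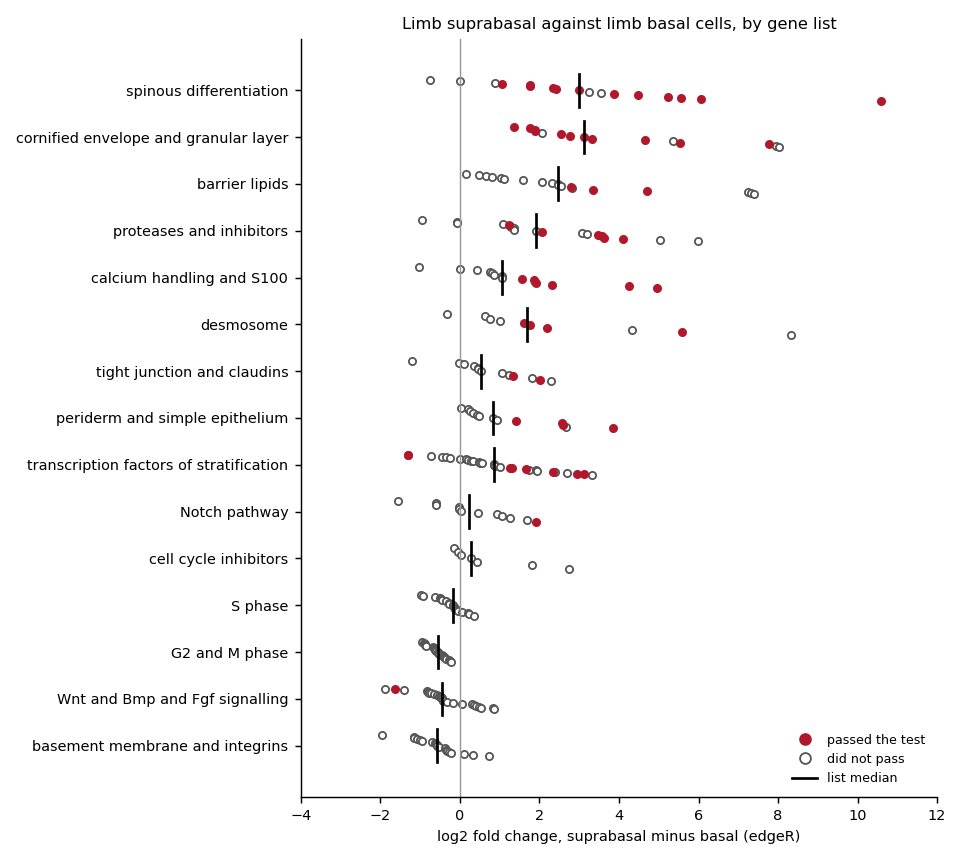
Log2 fold change of suprabasal over basal limb cells (edgeR fit on summed UMIs, x axis) for each tested gene of 15 lists (y axis), filled where it passed the test, with the median of the list as a bar. Spinous and cornified envelope genes lay mostly right of 0 (medians 2.99 and 3.13), and the 22 genes of G2 and M phase all lay left of 0 without passing.

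Part of the genes that rose lay together in the genome (gene positions of the mouse build GRCm38). In the epidermal differentiation complex, chr3:90511034-93564643 from S100a1 to S100a10, 38 of 80 annotated features had a UMI in suprabasal cells, 19 were tested and 11 rose (57.9%, against 1.41% of all genes). Its summed level was 14762 CPM in forelimb and 12112 in hindlimb suprabasal cells, 3533 and 4204 in basal cells and 3230 to 3540 in the penis cells. In the type II keratin cluster, chr15:101347444-102032027, 6 of 11 tested genes outside the rule rose (Krt77, Krt84, Krt80, Krt78, Krt7 and Krt6a), and in the type I cluster, chr11:99232761-100269871, 3 of 10 (Krt36, Krt34 and Krt13). Hrnr had 1 limb basal UMI, and Krt77, Krt84, Krt36 and Krt34 had none. Such genes could pass the filter on low counts through the suprabasal sums, where they were high. The shares of tested genes that rose are thus partly set by that filter and are description only. Dmkn, the gene of dermokine between Sbsn and Krtdap on chromosome 7, was at 1069 and 1438 CPM against 129 and 215 (2.97 ± 0.29, adjusted p = 0.000107). In all, 21 of the 150 genes lay in these 4 regions. The families hold close copies, so reads of Sprr, S100 and keratin genes may be shared between members.

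Keratins of hair and nail were carried by very few cells. Krt36 had no basal UMI and 561 and 16 suprabasal UMIs, at least 99.2-fold higher, but 508 of the 561 were in 1 forelimb cell. That cell held 659 of the 805 forelimb UMIs of 7 such keratins, together with 26 UMIs of Prr9 and 6 of Hoxc13, and 1 hindlimb cell held 49 of 75. Without the forelimb library Krt36 was no longer called (adjusted p = 0.321), and neither was Krt84 (0.212). Krt34 was not called without the hindlimb library (0.0146) or penis library 1 (0.0153). These keratins had a UMI in 12 forelimb and 8 hindlimb cells in all. The 2 cells with the most UMIs held none of the 65 and 14 UMIs of Krt34.

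Members of the periderm and simple epithelium list rose in 4 of 13 cases, among them Krt13, Krt7 and Krt6a. Krt13 was at 1665 and 496 CPM in suprabasal and 165 and 11.7 in basal cells (3.85 ± 0.36, adjusted p = 8.54e-05). Krt7 was at 1798 and 606 against 148 and 222 (2.60 ± 0.36, adjusted p = 0.00144), and Krt6a at 1825 and 739 against 168 and 250 (2.58 ± 0.31, adjusted p = 0.000639). Without cells holding RNA of other types, 1 of the 4 passed, and without suprabasal cells lacking both Krt1 and Krt10, 2 passed. The 3 keratins belong to the periderm and to lining epithelia rather than to spinous cells, and they were not evenly spread over the members.

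They were highest in the members that lacked both Krt1 and Krt10. This division was made after the values were seen and is given with no test. In forelimb 13 of 72 cells (18.1%) and in hindlimb 12 of 119 (10.1%) held neither keratin and had entered by Krtdap and Sbsn. Another 43 (59.7%) and 88 (73.9%) held both. The median depths were 5914 and 6793.5 UMIs without and 5535 and 5171.5 UMIs with both keratins, and the ranges of depth overlapped. Krt13 stood at 6817 CPM in forelimb and 2033 in hindlimb cells with neither, and at 475 and 7.27 in cells with both. It had a UMI in 5 of 13 and 4 of 12 of the cells with neither and in 3 of 43 and 4 of 88 of those with both, and 1 forelimb cell held 531 of the 1075 UMIs with neither. Krt7 stood at 6506 and 3374 CPM with neither and at 501 and 36.4 with both. It had a UMI in 7 of 13 and 7 of 12 cells against 4 of 43 and 10 of 88, with 534 of 1026 forelimb UMIs in 1 cell. A few cells thus carried much of these levels. Krt4 stood at 3380 and 3364 with neither and 187 and 172 with both. In both libraries the order was the same for these 3 keratins and for Krt19, at 5948 and 4957 CPM with neither and 797 and 154 with both.

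Envelope genes did not all follow one order between these cells. Cnfn, the gene of cornifelin, stood at 7489 and 5344 CPM with neither, with 643 of 1181 forelimb UMIs in 1 cell, and at 607 and 243 with both. Crct1, a gene of the epidermal differentiation complex, stood at 2245 and 1121 CPM against 132 and 119. Lor stood higher with neither in forelimb (875 against 106 CPM) and lower in hindlimb (430 against 4542, with 1703 of 3123 UMIs in 1 cell). Hrnr also ran in opposite directions, with 7 UMIs in the 13 forelimb cells with neither against 5 in the 43 with both, and 20.96 against 692 CPM in hindlimb. Ivl had no UMI with neither in either library. The cells with neither keratin held 20.1% and 9.94% of the UMIs of the members but 68.9% and 44.6% of those of Cnfn, 72.8% and 55.3% of Krt7 and 82.4% and 40.8% of Krt13. Krt15 was high in them (11382 and 12355 CPM against 1629 and 1040), while Krt14 was low in forelimb and hindlimb (88.8 and 220 against 1221 and 559). Over all members Krt15 stood at 4555 CPM in forelimb and 2619 in hindlimb, against 2892 and 2948 in limb basal cells. Its level therefore did not set the basal layer apart in both limbs.

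Genes of the spinous list ran both ways. Ly6d stood at 152 and 157 CPM in cells with neither keratin and at 1679 and 1875 in cells with both. Krt77 and Calml3 were also higher with both. Krt78, Lypd3 and Crct1 were higher with neither in both libraries. Krt78 stood at 672 and 597 CPM with neither against 74.4 and 7.27 with both, and Lypd3 at 197 and 189 against 88.8 and 109. Dsg1a stood at 0 and 31.4 CPM against 137 and 179. Dsc1, a desmocollin of the upper layers, Rbp2, a retinol-binding protein, and Gata3, a factor of keratinocyte differentiation, had no UMI in the cells with neither in either library. Their levels in cells with both were 28.8 and 74.2 CPM for Dsc1 and 108 and 103 CPM for Gata3. Of the 25 cells with neither, 7 forelimb and 6 hindlimb cells held marker combinations of other types, and Col1a2, a mesenchyme collagen, stood at 647 and 671 CPM in them and 293 and 637 CPM in cells with both. Not each of the 25 cells held the keratins of the periderm list, so the cells are named here only by the lack of Krt1 and Krt10.

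**Figure D3:**
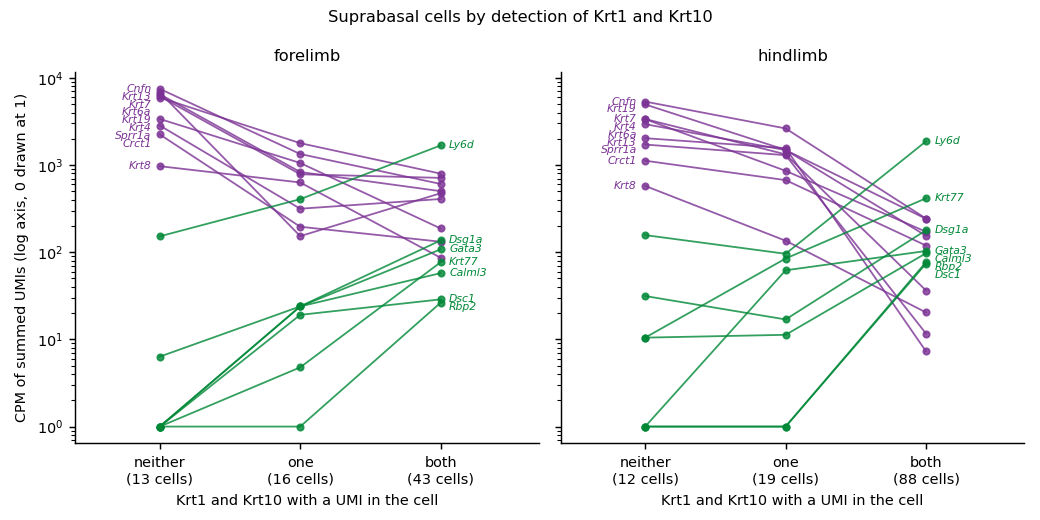
CPM of summed UMIs (log axis, 0 drawn at 1) in suprabasal cells of forelimb (left) and hindlimb (right), divided by whether a cell held neither, 1 or both of Krt1 and Krt10 (x axis, cell numbers below). Krt13, Krt7, Krt4, Krt19 and Cnfn (purple) fell from neither to both, for example Krt7 from 6506 to 501 CPM in forelimb, and Ly6d, Dsg1a and Gata3 (green) were highest with both.

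Forelimb and hindlimb differed by 1 library each, so their values are given with counting intervals and no test. Of 3035 genes with at least 100 UMIs in both sums together, 85 were over 2-fold higher in forelimb and 50 in hindlimb, 4.45% in all. Limb identity genes followed the labels: Pitx1, a hindlimb factor, had 0 UMIs in forelimb and 24.0 CPM in hindlimb, Tbx4 stood at 2.55 and 9.37 CPM, and Tbx5, a forelimb factor, at 15.3 and 1.04 CPM. These genes belong to limb mesenchyme, and 1 to 23 UMIs lie behind each value above 0.

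The largest ratios toward forelimb were those of Krt36 (43.0, interval 26.2 to 75.7), Krt84 (11.2), Nkain2 (5.25), Phgr1 (5.05) and Tchh (4.95), and 38.5% to 90.6% of the forelimb UMIs of each were in 1 cell. Toward hindlimb they were those of Hdc (53.1, 14.4 to 443), Hrnr (28.7), Cpa3 (16.2), Orm1 (14.6) and Lor (14.3, 12.5 to 16.6). Hdc and Cpa3, which are genes of mast cells, lay in 8 hindlimb cells each, with 77 of 130 and 119 of 218 UMIs in 1 cell. For Lor the cells with a UMI were 24 of 72 and 45 of 119, and the level without the highest cell was 167 CPM in forelimb and 1987 in hindlimb. Lor was also found in 4.95% of forelimb and 7.71% of hindlimb mesenchyme cells, against 33.3% and 37.8% of suprabasal cells. Krt77 stood at 42.1 CPM in forelimb and 315 in hindlimb, a ratio toward hindlimb of 7.47 (5.21 to 11.1), and Calm4 at 353 and 1125 (3.18, 2.79 to 3.64). Krt13, Krt7 and Krt6a were higher in forelimb, by 3.36, 2.97 and 2.47, where the cells with neither Krt1 nor Krt10 were 18.1% of the members against 10.1%. Most ratios at the extremes rested on few cells, whereas Ly6d (1.33 toward hindlimb) and Fabp5 (1.46) were within 2-fold.

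To see where limb suprabasal cells differed from the penis cells chosen by the same genes, the 2 limb and 3 penis sums were compared. Of 11157 genes tested, 821 (7.36%) were higher in limb and 519 (4.65%) lower. Basal keratins were found in more of the cells of each penis library. The cells were chosen at full depth and their UMIs then thinned to 2000, which left out 12 forelimb and 17 hindlimb cells with fewer. Krt14 was then expected in 28.6% and 46.9% of limb cells and in 84.4% to 85.3% of penis cells, and Krt5 in 43.6% and 56.6% against 84.8% to 91.3% (exact permutation p = 0.1 each, the smallest it can give, adjusted 0.12). Deeper penis cells could meet the rule more easily. When thinning came before the rule, 29 forelimb, 50 hindlimb and 28, 38 and 32 penis cells were chosen, and these shares were not taken in them. Without thinning, 89.8% to 91.8% of penis cells held Krt14 and 90.6% to 95.9% Krt5. In cells with no Krt14 UMI, 9 to 13 per penis library, 74 genes were higher and 58 lower of 3780 tested. The shares of cells with basal keratins, among cells chosen at full depth, did not overlap between limb and penis, and their part in the comparison was not tested gene by gene. Without penis library 3 the counts were 527 and 328.

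Most envelope and periderm genes tested were higher in limb. Genes with few UMIs in 1 tissue could pass the filter on low counts through the sums of the other. List counts and medians in this comparison are thus partly set by that filter and are description only. Of 29 cornified envelope genes listed, 15 were tested, and of these 13 were higher and none lower (median log2 fold change 4.09, against -0.02 for all genes). Cnfn was at 2187 and 1190 CPM in limb and at most 5.16 CPM in penis (9.69 ± 0.47, adjusted p = 1.26e-07), and Sprr1b at 365 and 417 against at most 1.29 (8.66 ± 0.25, adjusted p = 2.34e-09). Hrnr had no UMI in penis and 14 forelimb and 492 hindlimb UMIs, 369 of them in 1 cell, and was not called without penis library 3 (adjusted p = 0.0218). Crct1 was at 574 and 321 CPM in limb with no UMI in penis, at least 862-fold higher. Of 14 genes of the periderm and simple epithelium list, 12 were higher and none lower (median 3.00). Krt13 was at 1665 and 496 CPM against 16.4 to 29.7 (5.40 ± 0.43, adjusted p = 3.72e-06), and Krt4 at 1062 and 616 against 86.1 to 153 (2.79 ± 0.24, adjusted p = 7.42e-06). In cells with no Krt14 UMI, 6 of 12 envelope genes and 1 of 11 of the periderm list were called.

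Of 21 lipid barrier genes tested 11 were higher in limb, and of 14 tight junction genes 8 were higher and 1 lower, against 7.36% and 4.65% of all genes. Abca12 had no penis UMI and stood at 48.5 and 106 CPM in limb. Cldn1, the main claudin of the epidermal barrier, was at 142 and 82.3 CPM against 4.82 to 6.03 (4.23 ± 0.29, adjusted p = 1.50e-06). Cldn7 was the 1 gene of this list that was lower, at 1.28 and 5.21 CPM against 21.95 to 30.8 (-3.02 ± 0.46, adjusted p = 0.000441). In cells with no Krt14 UMI the estimates of Cldn3, Cldn4 and Tjp3, which were higher in limb over all cells, turned negative without passing. Tjp3 also missed the limit without the forelimb library (adjusted p = 0.0673) or any one penis library (0.0181 to 0.0265).

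Lower in limb were 10 of 20 genes of the basement membrane and its integrins, with none higher (median -1.37). Col17a1 was at 165 and 62.5 CPM against 368 to 485 (-1.99 ± 0.30, adjusted p = 0.000380), and Col4a6, a basement membrane collagen, at 48.5 and 62.5 against 211 to 288 (-2.19 ± 0.19, adjusted p = 6.54e-06). Of 18 spinous genes 10 were higher and 3 lower, and the values of Ly6d overlapped between the tissues (1032 and 1376 CPM against 1055 to 1374, -0.04 ± 0.18, adjusted p = 0.905). Krt2, a late keratin, had 1 limb UMI and 132 penis UMIs. Of 31 transcription factors 9 were higher, led by Hopx at 1277 and 635 CPM against 42.6 to 83.9 (3.93 ± 0.29, adjusted p = 2.32e-06), and 4 were lower, among them Ehf, Barx2 and Tfap2b. Ehf, an epithelial ETS factor, was at 11.5 CPM in both limbs against 89.7 to 120 (-3.22 ± 0.26, adjusted p = 4.97e-06).

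Outside the lists, Kcnh7, a potassium channel gene, and Defb4, a defensin, had no UMI in the penis sums and were at least 719-fold and 182-fold higher in limb. Ankfn1 and Tmem266 had no UMI in limb and were at least 74.7-fold and 36.2-fold lower. Gria4, a glutamate receptor subunit, had 1 limb UMI and 3217 penis UMIs, and Cyp2t4 had 1 and 2328. Of 22 genes of G2 and M phase, 4 were higher in limb (Ube2c, Birc5, Cdk1 and Ccnb1), and all 22 estimates were positive with a median of 0.71. The call of Ccnb1 was lost without the forelimb library (adjusted p = 0.0561) or any one penis library (0.0153 to 0.0254).

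**Figure D4:**
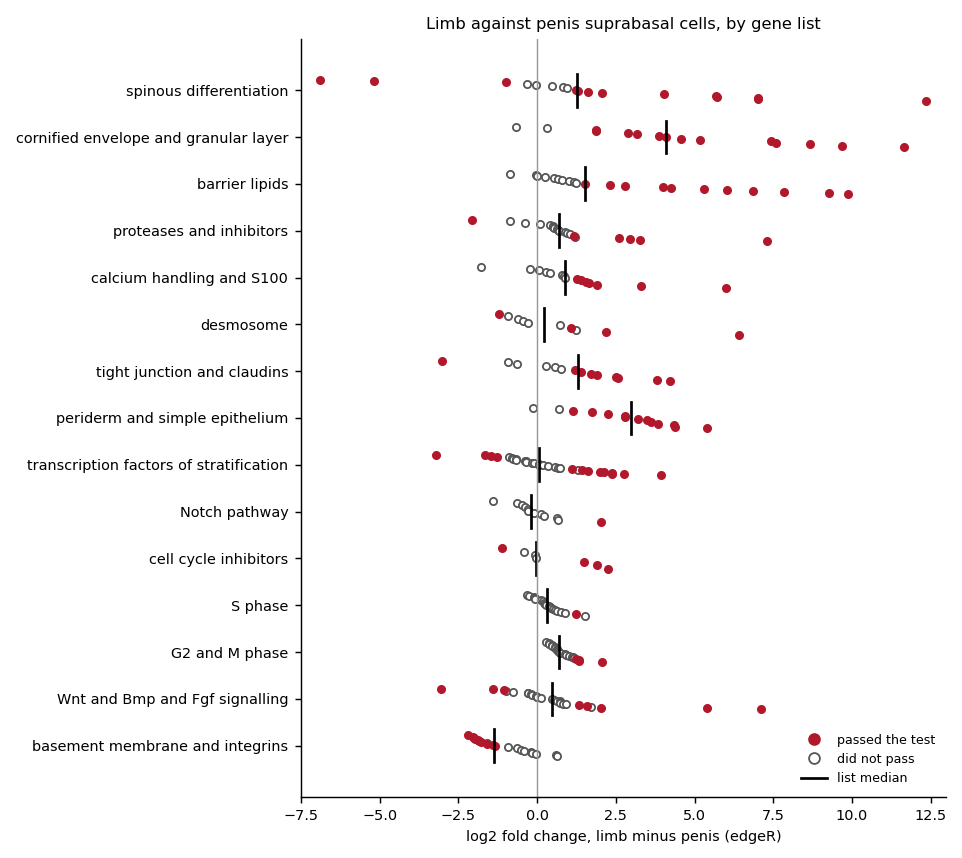
Log2 fold change of limb over penis cells chosen by the same suprabasal genes (edgeR fit on 2 limb and 3 penis sums, x axis) for tested genes of 15 lists (y axis), filled where the gene passed the test, with list medians as bars. Envelope and periderm genes lay right of 0 (medians 4.09 and 3.00) and basement membrane genes left (-1.37).

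Whether the step from basal to suprabasal differed between limb and penis was tested as an interaction. The difference between layers was larger in limb for 17 of 10669 genes (0.159%) and smaller for none by edgeR (18 and 2 by DESeq2). At an unadjusted p under 0.05 there were 945 larger and 615 smaller. Krtdap had a UMI in 49.5% to 64.0% of penis basal cells (373 to 451 CPM) and in 18.8% of forelimb basal cells (95.4 CPM). All 4 suprabasal genes were held by 24 of 128, 25 of 147 and 16 of 104 penis members. In limb they were held by 30 of 72 forelimb and 63 of 119 hindlimb members. The part of these differences between the tissues in the steps was not tested. Lor had a step larger by 4.82 ± 0.52 on the log2 scale: limb rose from 23.3 and 49.1 to 259 and 3716 CPM, and penis went from 38.3 to 67.2 in basal to 69.8 to 85.7 in suprabasal cells (adjusted p = 0.00272). Klk10 had a step larger by 3.75 ± 0.37 (adjusted p = 0.00153), with 23.9 to 38.4 CPM in basal and 20.7 to 27.5 in suprabasal penis cells. With the further limit of 0.8 on log10 genes per log10 UMI that the study also set, 6 genes were called. That limit left 74 of the 75 basal cells of penis library 3 and changed no other sum. When any one penis library was left out, 1 or 2 genes were called, and none was called when suprabasal cells were required to hold 3 of the 4 genes and basal cells none.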

How the data were processed

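Single-cell RNA-seq libraries of 3 P6 mouse penises, 1 E15 forelimb and 1 E15 hindlimb were used. The authors dissociated the tissues, made 10X 3' libraries and counted UMIs with Cell Ranger 7.0.0 against mm10, and what they deposited are unnormalized UMI counts, gene by barcode, before any later filter. Whether introns were counted is not stated, and they would add to the level of long genes.

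Barcodes were kept with the limits of the study's methods, read as detected genes per cell (500 to 6000 and at most 5% mitochondrial UMIs for penis, 100 to 9000 and 10% for limb). The study's limit of 0.8 on log10 genes per log10 UMI was tried only as an alternative, and its slightly higher upper limit for hindlimb was not used. No doublet caller was run; results are given again without cells that hold markers of other types. The members and gene lists were chosen with earlier results of these data known, and cells are not replicates. UMIs were summed per library and layer. edgeR 4.0.16 (R 4.3.3, limma 3.58.1; TMM, filterByExpr, quasi-likelihood test, Benjamini-Hochberg over all genes tested) was fitted to 10 sums with library as a block, since both layers of a library come from the same sample, and to 5 suprabasal sums for limb against penis. In the first fit the penis sums add to the estimate of spread, to the filter on low counts, to the TMM factors and so to the adjustment. The 10 sums leave 3 residual degrees of freedom, and the 4 limb sums alone leave 1. The common dispersion, the spread beyond counting error, was 0.0184 over the 10 sums and 0.0322 over the 4 limb sums alone. Genes were called at an adjusted p under 0.01 and a log2 fold change past 1. The SE given was derived from the test, by dividing the size of the log2 fold change by the root of F. Where a group had no UMI, 3 counts in its sum served as the floor and the fold is a lower bound, and groups with 1 to 3 counts were given as ratios with 95% counting intervals. All intervals are exact, from scipy 1.17.1 under Python 3.11.15, and cover counting error only. Forelimb and hindlimb, with 1 library each, were compared with no test.

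On simulated counts the layer fit recovered 68.8% of genes changed by a log2 fold of 2 and 87.8% of those changed by 3, among 10354 genes, with 0 false calls. The fit of limb against penis recovered 86.5% and 92.5% among 10506 genes with 4 false calls. The simulation gave every gene the same dispersion (0.0184 and 0.0199 for the 2 fits) and all other genes no difference. Real genes differ in their spread, so these counts do not measure the false calls among the real genes.

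Named genes were, per list, the called genes of largest change (up to 4), with well known members that were not called given by value; outside the lists, the 10 largest and 10 smallest layer changes, 5 and 5 for limb against penis, for the interaction and for forelimb against hindlimb, leaving out the genes of the rule, Gm and Rik names, mitochondrial and ribosomal protein genes. Alternatives were DESeq2 1.42.0, no TMM factors, no filter on low counts, stricter layers (3 suprabasal genes, or none in basal cells), the limit of 0.8 on genes per UMI, limb limits for penis, no cells of other types, thinning to 2000 UMIs, no block, limb sums alone, no rule genes, and leaving out each library. Promoter sequences are RefSeq's, and gene positions are those of GRCm38. The ChIP-seq of the study was not analysed here. A few genes that these rules name are not reported here.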

Additional observations from a re-analysis of the deposited data

Results flagged for a closer look

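For 17 genes the step from basal to suprabasal cells differed between limb and penis, by the interaction test of the edgeR fit, and was larger in limb. The differences in log2 fold change between limb and penis were 5.43 for Ly6g6c, 5.26 for Calml3, 4.82 for Lor, 4.71 for Krt80, 3.75 for Klk10, 3.39 for Chl1 and 2.93 for Cited2. They were 2.86 for Calm4, 2.66 for March3, 2.36 for Cnn3, 2.30 for Gltp, 2.15 for Cpeb2, 1.86 for S100a16 and 1.76 for Csta1. Ppl, S100a14 and Ahnak had the smallest, 1.74, 1.53 and 1.30. The adjusted p ran from 0.00129 (Ly6g6c) to 0.00990, and for most of the 17 it was 0.00978 or above, just under the limit of 0.01. Only 6 of the 17 were still called with the limit on genes per UMI, which removed 1 basal cell of penis library 3.

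Ly6g6c, of the same protein family as Ly6d, was at 315 CPM in forelimb and 308 in hindlimb suprabasal cells and at 6.36 and 16.4 in basal cells. In penis it was at 1.94 to 9.90 CPM in suprabasal and 1.37 to 16.6 in basal cells. For Calml3 and Krt80, 1 and 2 limb basal UMIs lie behind the limb step. Without penis library 1, 2 or 3 the number of genes with a larger step was 2, 1 and 1, and 1 of the 17 was still called in each case. Tissue, age and preparation cannot be told apart, and the part of depth and of basal RNA in the penis cells was not tested gene by gene.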

How the results depend on the processing

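Genes higher and lower in limb suprabasal than in basal cells numbered 150 and 18. The counts were 80 and 11 with DESeq2, 395 and 72 with no filter on low counts, 34 and 0 with stricter layers, 77 and 31 without cells of other types and 40 and 58 after thinning before the rules, 71 higher after thinning, and 10 lower with limb limits for penis. Without one library each they ranged from 73 to 151 and from 6 to 33. The larger and smaller steps (17 and 0) became 6 larger with no TMM factors, 218 and 41 with no filter, 0 with stricter layers, 6 with the limit on genes per UMI, 10 and 1 with limb limits, 9 and 1 without other types, 5 and 2 thinned before the rules, 2 with members holding Krt1 or Krt10, 5 without the rule genes, 2 smaller with DESeq2 and 5 smaller when thinned, and ranged from 1 to 28 and 0 to 6 without one library each. With no replicate block, that is without the pairing of both layers by library, 147 and 14 genes were called for the layers and 6 larger steps. Limb against penis (821 and 519) gave 427 and 313 with stricter layers, 536 higher without other types, 247 and 225 thinned, 65 and 61 thinned before the rules, 74 and 58 in cells without Krt14 and 832 lower with no filter, and 527 to 757 and 328 to 488 without one library each. In cells without Krt14, Cldn3 (-0.11), Cldn4 (-0.62) and Tjp3 (-0.87) turned negative. The members numbered 45 and 76 without other types and 29 and 50 thinned before the rules. Forelimb and hindlimb genes past 2-fold (85 and 50) were 7 and 2 when thinned, and 11 for hindlimb without other types. Thinning before the rules, the cells without Krt14 and the members with Krt1 or Krt10 were chosen after seeing the data. Fewer genes and cells entered several of these fits, and the cause of each shift was not tested.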
